A study of Mus musculus with 8 samples.

Results

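A set of 10 transcription regulators of the adipocyte programme was examined in macrophages of epididymal white adipose tissue (eWAT), namely the nuclear receptors Pparg, Ppara and Ppard, their partner Rxra, the coactivators Ppargc1a and Ppargc1b, the CCAAT/enhancer binding proteins Cebpa, Cebpb and Cebpd, and the Krüppel-like factor Klf15. The genes were listed by name, and all 10 were listed in both deposited tables, which together held 18040 genes and shared 16136. Adhesion-related macrophages (ARMs), which stay bound to fat cells, were sorted from the adipocyte layer of digested eWAT, and stromal vascular fraction macrophages (SMs, NARM in the sample labels) from the cell pellet beneath it. Before sorting, the adipocyte layer was vortexed with beads until the fat cells broke, while the pellet was only resuspended, filtered and spun. Cell type and this handling therefore cannot be told apart in any ARM against SM value. The mice were wild-type C57BL/6J males that received a normal chow diet (ND) or a high-fat diet (HFD) from 6 weeks of age, the HFD for 8 weeks. Each of the 4 groups (HFD ARM, HFD SM, ND ARM and ND SM) had 2 RNA-seq libraries, with 6 HFD mice or 10 ND mice pooled in each. The labels do not say whether the 2 pools of a group were collected separately, so p-values measure only the spread between these libraries.

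PPARs are ligand-activated receptors for fatty acids and their derivatives, and they bind DNA as pairs with an RXR. PPARG, together with CEBPA, drives and maintains the adipocyte state, and CEBPB and CEBPD act before them when a precursor cell becomes a fat cell. Macrophages use several of the same factors: PPARG and PPARD act in lipid handling and alternative activation, and C/EBP proteins in myeloid differentiation and inflammatory gene expression. PPARA drives fatty acid oxidation in liver, the PGC-1 coactivators (Ppargc1a, Ppargc1b) support mitochondrial genes, and KLF15 is found in adipocytes, muscle and liver, where it regulates glucose and amino acid metabolism.

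Estimated counts summed to between 14508824 and 19040133 per library. Replicates of every group differed by more than sampling noise. All 12 macrophage markers fixed for the comparison, among them Adgre1 (F4/80) and Csf1r, were tested in both diets. edgeR called 0 of them, with 4 and 2 at an unadjusted p under 0.05 in HFD and ND mice, and DESeq2 and limma called 0. Their summed level was 13543 to 14412 FPKM (fragments per kilobase of gene length, scaled to sequencing depth) in HFD libraries and 15939 to 16458 in ND libraries, so the labelled cell type was present in each library. Defining adipocyte markers were also detected, and more so in ARMs, as given beside Pparg.

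Gene positions are given on GRCm38 with GENCODE M21. Pparg spans chromosome 6 from 115360951 to 115490399 on the plus strand, and its coding transcripts begin at 3 starts, at 115360951, 115362292 and 115422066. The last of these is the start of the adipocyte-enriched form, PPARG2. The tables give 1 value per gene, so transcripts from the 3 starts cannot be told apart. Ppara lies on chromosome 15 (85734983 to 85802819, plus strand), Ppard on chromosome 17 (28232700 to 28301474, plus strand) and Rxra on chromosome 2 (27676440 to 27762957, plus strand). Ppargc1a lies on chromosome 5 (51454250 to 51567726, minus strand). The C/EBP genes are compact: Cebpa lies on chromosome 7 (35119293 to 35121928), Cebpb on chromosome 2 (167688915 to 167690418) and Cebpd on chromosome 16 (15887286 to 15891031), all on the plus strand, and Cebpb and Cebpd have 1 exon each. Klf15 lies on chromosome 6 (90462576 to 90475238, plus strand).

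Sequences upstream of 3 starts are shown because they belong to Pparg, the only member called between ARMs and SMs, to Cebpb, the member with the highest level, and to Cebpa, which had the largest FPKM ratio between the tables of the 2 diets among the tested members. For Pparg the start of the PPARG2 form is shown, since the windows of the other 2 starts overlap annotated exons. Each runs 5′ to 3′ over the 250 bases before a RefSeq start of GRCm38.p6, and capitals mark matches, on either strand, to any of 5 motifs whose letters are spelled out after the sequences. The windows are chr6:115421816-115422065 for the Pparg start at 115422066, chr7:35119043-35119292 for Cebpa and chr2:167688665-167688914 for Cebpb, all on the plus strand.
Pparg: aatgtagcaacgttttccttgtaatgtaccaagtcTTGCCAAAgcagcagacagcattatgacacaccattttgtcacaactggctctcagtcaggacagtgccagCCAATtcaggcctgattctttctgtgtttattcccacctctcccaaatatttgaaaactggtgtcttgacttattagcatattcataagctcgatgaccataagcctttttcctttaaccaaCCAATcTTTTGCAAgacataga
Cebpa: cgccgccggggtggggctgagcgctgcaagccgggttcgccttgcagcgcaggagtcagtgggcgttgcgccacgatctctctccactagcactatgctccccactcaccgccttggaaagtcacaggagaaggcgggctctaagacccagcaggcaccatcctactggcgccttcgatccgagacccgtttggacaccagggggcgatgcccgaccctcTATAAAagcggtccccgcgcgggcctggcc
Cebpb: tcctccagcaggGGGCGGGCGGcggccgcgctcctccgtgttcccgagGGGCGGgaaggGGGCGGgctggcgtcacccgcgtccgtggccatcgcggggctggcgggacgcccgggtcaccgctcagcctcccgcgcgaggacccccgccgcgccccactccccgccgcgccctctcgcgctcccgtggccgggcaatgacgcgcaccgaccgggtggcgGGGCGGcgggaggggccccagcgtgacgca
The Pparg window held the C/EBP-type motif, spelled TTGCNNAA, from -215 to -208 and from -16 to -9 relative to the start, and this motif occurs in 9.57% of the 32817 upstream windows of this length in the RefSeq table. The windows of the other 2 Pparg starts held no match to it. The window shown also held the CCAAT box, spelled as its name says, at 2 positions (from -144 to -140 and from -22 to -18), which occurs in 33.8% of windows. The Cebpa window held the TATA box, spelled TATAAA, from -30 to -25, against 12.4% of windows with at least 1. The Cebpb window held the GC box, spelled GGGCGG, at 5 positions, the first 2 of which overlap, against 32.7% of windows with at least 1. The E-box, spelled CACGTG and present in 6.02% of windows, was in none of the 3. The GC content was 40.8% for Pparg, 66.4% for Cebpa and 81.6% for Cebpb, against a median of 52.4% over all windows. These matches describe the letters only, and binding was not measured here.

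The first comparison asks which of these regulators differ between macrophages bound to adipocytes and those of the stroma, in each diet. In HFD mice Pparg was higher in ARMs, and it was the only member called at a fold change over 1.5 with an adjusted p under 0.05. No member was called lower in HFD mice, and none was called in either direction in ND mice. Of the 10 members, 8 passed edgeR's filter on low counts in both diets, while Ppara and Ppargc1a, with under 10 counts in every library, were not tested. The share of all tested genes called higher in ARMs was 4.46% in HFD mice and 3.55% in ND mice, and the share called lower was 0.292% and 0.129%, which makes 4.75% and 3.68% in either direction. Of the 8 tested members, 5 had an unadjusted p under 0.05 with lower values in HFD ARMs, and DESeq2 called 0 of these at the same thresholds. In ND mice 2 members had an unadjusted p under 0.05, both higher in ARMs, and DESeq2 called 0. The share of all tested genes at an unadjusted p under 0.05 was not counted, so these counts of 5 and 2 cannot be set against it. With 2 libraries against 2, an exact two-sided permutation test of 1 gene cannot give a p under 0.333, so the tests rest on a spread that edgeR shares across genes.

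**Figure D1:**
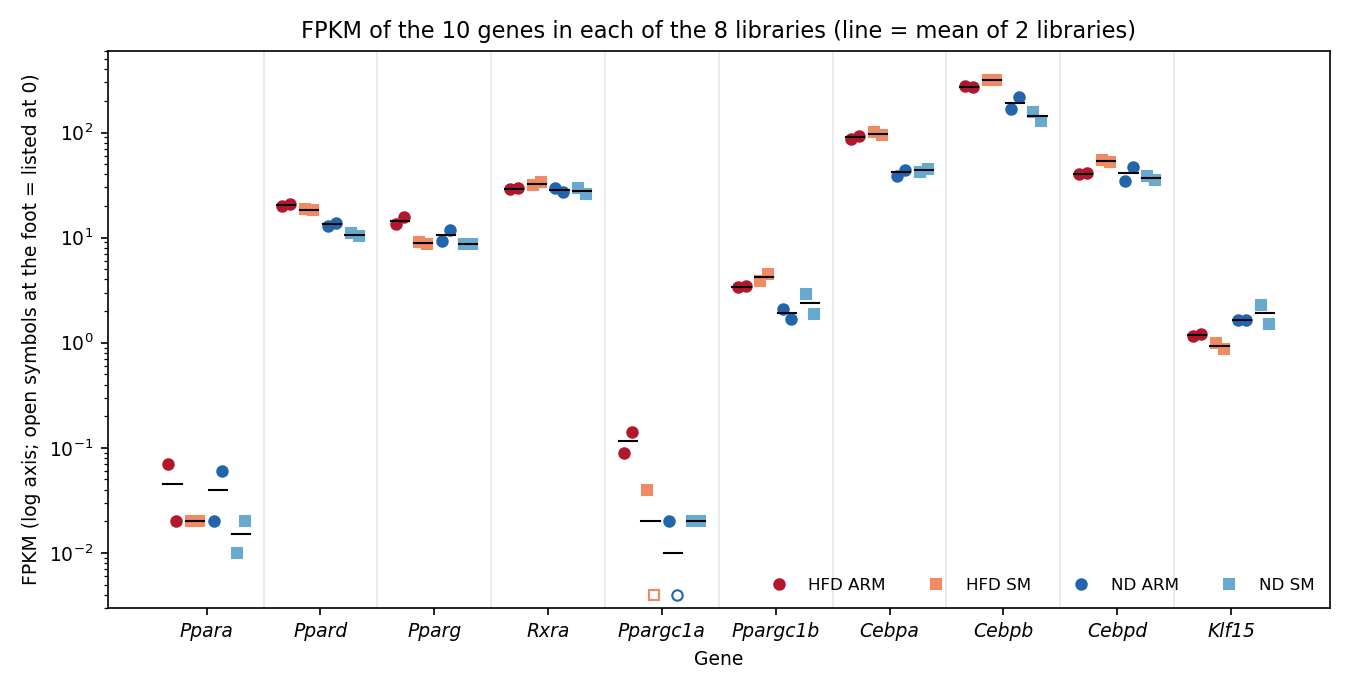
FPKM (log axis) of each of the 10 genes in the 8 libraries, coloured by group, with a line at each mean of 2 libraries and open symbols where a gene was listed at 0. Cebpb was the highest of them in every library, the mean levels of Ppara and Ppargc1a stayed at or below 0.115 FPKM, and the Pparg values of the HFD ARM libraries lay above those of the other 6 libraries.

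**Figure D2:**
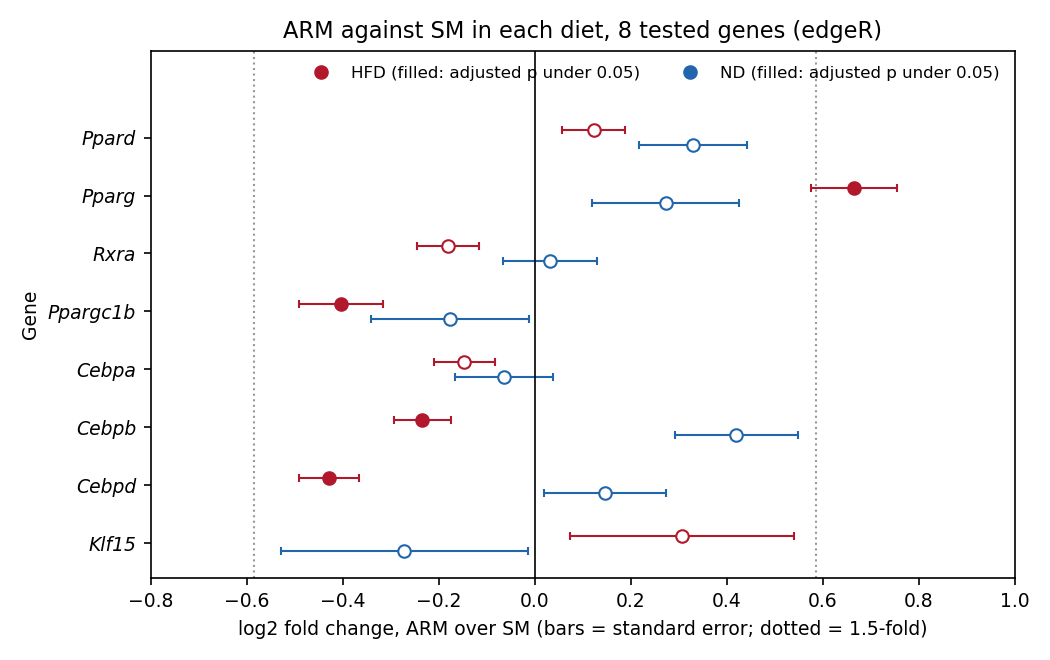
log2 fold change of ARMs over SMs with its standard error for the 8 tested members, in HFD and in ND mice, filled where edgeR's adjusted p was under 0.05. Pparg in HFD mice is the only value past the dotted line at 1.5-fold, and Cebpb lies on opposite sides of 0 in the 2 diets.

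PPARG is the receptor that controls fat cell formation and lipid storage, and in macrophages it acts in lipid uptake. Pparg was at 13.4 and 15.6 FPKM in HFD ARMs against 9.10 and 8.75 in HFD SMs. In ND mice it was at 9.26 and 11.8 FPKM in ARMs against 8.67 and 8.66 in SMs. Both ARM libraries lay above both SM libraries in each diet, by a wide margin in HFD mice and a narrow one in ND mice. The difference in HFD mice was 1.59-fold, a log2 fold change of 0.67 with a standard error of 0.09 (edgeR adjusted p = 0.00134). In ND mice the log2 fold change was 0.27 with a standard error of 0.15 (edgeR adjusted p = 0.463). The 2 diets' changes differed by 0.38 on the log2 scale, with a standard error of 0.18 and an edgeR adjusted p of 0.675, which did not pass. Without replicate 2 of the HFD ARMs, the higher of the pair, the HFD log2 fold change was 0.59 and its edgeR adjusted p 0.0525, so the call was lost. The call was also lost in limma on unfiltered log2(FPKM + 1) values (0.64, adjusted p = 0.0944).

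Adipocyte transcripts moved in the same direction as Pparg. Of the 14 adipocyte markers, 11 were called higher in HFD ARMs and 8 in ND ARMs, of 13 tested in each diet (Adipoq, Lep, Plin1, Plin4, Cidec, Cfd, Car3 and Adrb3 in both, with Retn, Aqp7 and Tshr in HFD mice). Lipe and Slc2a4 were tested and not called, and Cidea was at 0.05 FPKM or less in HFD mice. Of all tested genes, 4.46% were called higher in HFD ARMs and 3.55% in ND ARMs. The summed level of the markers was 211 to 227 FPKM in HFD ARMs and 49.6 to 51.2 in HFD SMs, and 181 to 295 in ND ARMs against 90.8 to 114 in ND SMs. Adipoq, which encodes the adipocyte hormone adiponectin, was at 13.0 and 15.7 FPKM in HFD ARMs against 1.90 and 1.99 in HFD SMs, a log2 fold change of 2.85 (edgeR adjusted p = 5.76e-06), while Pparg stood at 8.75 FPKM or more in the same SMs. Without replicate 2 of the ND ARMs, in which Adipoq was at 13.7 FPKM against 7.61 in replicate 1, 3 markers were called in ND mice, and the Pparg log2 fold change there was 0.05 in place of 0.27. The part of adipocyte RNA in the Pparg difference was not tested. In such bulk libraries, fewer cells of a type and less RNA per cell cannot be told apart.

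Markers of other cells were also higher in ARMs and are given for the same reason. Their counts stand beside 4.46% and 3.55% of all tested genes called higher in HFD and ND ARMs. Of the 11 endothelial markers (Pecam1, Cdh5 and others), 10 were called higher in HFD ARMs and 1 in ND ARMs, with a summed level of 58.1 to 60.9 FPKM against 17.5 to 24.9 in HFD mice. Of the 10 markers of fibroblasts and progenitors (Pdgfra, Dcn and others), 5 and 8 were called higher, of the 8 of pericytes and smooth muscle (Rgs5, Acta2 and others) 3 and 3, and of the 5 mesothelial ones (Msln, Upk3b and others) 0 and 4. The summed fibroblast and progenitor level was 176 to 216 FPKM in HFD ARMs against 119 to 133 in HFD SMs, and 229 to 333 against 82.2 to 112 in ND mice. These counts moved with single libraries: 6 endothelial markers were called in HFD mice without ARM replicate 1, and 8 in ND mice without ARM replicate 1 and 0 without ARM replicate 2 or SM replicate 1. No fibroblast marker was called in HFD mice without ARM replicate 2, and without SM replicate 1 there were 6 mural and 3 mesothelial calls there. In ND mice 0 mural markers were called without ARM replicate 2. edgeR called 0 markers of B cells or neutrophils (S100a8, S100a9) higher. It tested 3 of 4 B cell markers in each diet, and 3 and 4 of 5 neutrophil markers in HFD and ND mice. Of the 5 T and NK cell markers only 1 was tested in each diet, and it was not called. Cd3e and Cd3d did not pass the filter on low counts, so a difference in them could not be seen here. In ND ARMs edgeR called S100a9 lower. Without ARM replicate 1 the median log2 fold change of the tested neutrophil markers there was -0.66 in place of -1.29. In HFD mice limma on log2(FPKM + 0.1) called 2 neutrophil markers and 1 B cell marker higher, and edgeR with at least 10 counts in every library called 1 neutrophil marker. Their part in the members' values was not tested either.

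PPARD, a broadly expressed receptor, promotes fatty acid oxidation and takes part in alternative activation of macrophages. Ppard was at 19.8 and 21.1 FPKM in HFD ARMs, at 18.6 and 18.3 in HFD SMs, at 13.0 and 13.9 in ND ARMs and at 11.0 and 10.4 in ND SMs. The ARM libraries lay above the SM libraries in both diets. The log2 fold change was 0.12 (standard error 0.07, edgeR adjusted p = 0.307) in HFD mice and 0.33 (standard error 0.11, edgeR adjusted p = 0.129) in ND mice, and neither passed. In ND mice 2 of 14 alternatives passed, with an edgeR adjusted p of 0.0333 in the joint fit of both diets as the larger.

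Ppara was near the detection limit. Its counts were 9 and 3 in HFD ARMs, 3 and 3 in HFD SMs, 2 and 6 in ND ARMs and 1 and 2 in ND SMs, at 0.01 to 0.07 FPKM. Counts of 3 or fewer cannot be separated from 0 at this depth, and no difference between groups was detectable.

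Within the PPAR family, Ppard carried the larger part of the transcripts and Pparg nearly all of the rest. The Pparg share of summed PPAR FPKM was 40.2% to 42.4% in HFD ARMs, 32.3% to 32.9% in HFD SMs, 41.6% to 45.9% in ND ARMs and 44.1% to 45.3% in ND SMs. HFD SMs thus stood below the other 3 groups, whose ranges lay close together. The Ppara share was at most 0.233% in any library.

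**Figure D3:**
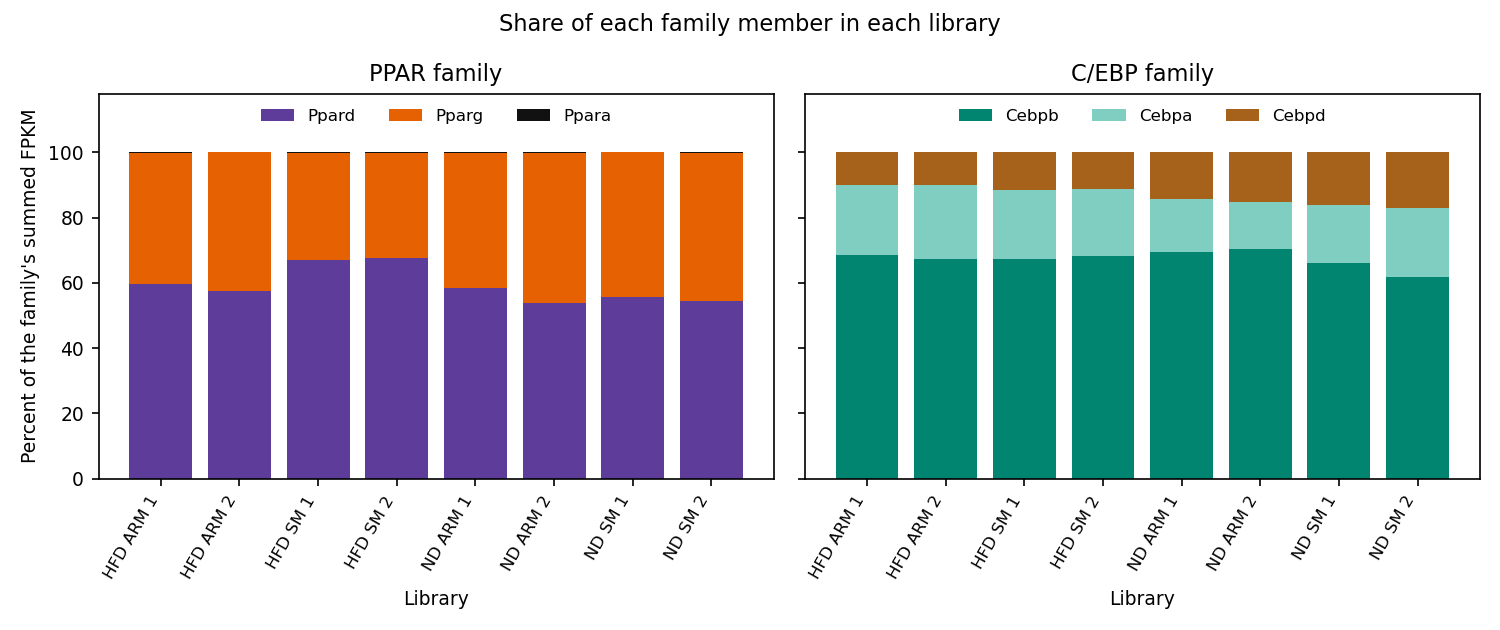
Share of each member in the summed FPKM of the PPAR family (left) and of the C/EBP family (right), as a percent, in each of the 8 libraries. Ppard holds 53.9% to 67.6% of the PPAR family, with its highest shares in the HFD SM libraries, and Cebpb holds 61.7% to 70.4% of the C/EBP family.

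RXRA is 1 of the RXRs that pair with PPARs and with other nuclear receptors. Rxra was at 28.9 and 29.5 FPKM in HFD ARMs, 31.5 and 33.5 in HFD SMs, 29.6 and 27.1 in ND ARMs and 29.5 and 26.2 in ND SMs. The HFD ARM libraries lay below the HFD SM libraries, and the ND groups overlapped. The log2 fold change was -0.18 (standard error 0.06, edgeR adjusted p = 0.116) in HFD mice and 0.03 (standard error 0.10, edgeR adjusted p = 0.933) in ND mice. Rxra exceeded Pparg in every library, by 1.90 to 2.16 times in HFD ARMs, 3.46 to 3.83 times in HFD SMs, 2.29 to 3.20 times in ND ARMs and 3.02 to 3.40 times in ND SMs. This ratio was lower in both HFD ARM libraries than in any other library.

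Of the PGC-1 coactivators, which join PPARs and other receptors to the transcription machinery, only Ppargc1b (chromosome 18, 61298136 to 61400431, minus strand) passed the filter on low counts. Ppargc1b was at 3.38 and 3.46 FPKM in HFD ARMs, 3.86 and 4.51 in HFD SMs, 2.11 and 1.69 in ND ARMs and 2.91 and 1.88 in ND SMs. The groups did not overlap in HFD mice, where ARMs were lower, and overlapped in ND mice. The log2 fold change was -0.40 (standard error 0.09, edgeR adjusted p = 0.0171) in HFD mice, short of the fold threshold, and -0.18 (standard error 0.17, edgeR adjusted p = 0.718) in ND mice. The adjusted p in HFD mice lay under 0.05 in 5 of 14 alternatives and reached 0.368. Its estimated counts in HFD mice were not whole numbers (367 and 387 in ARMs, 484 and 530 in SMs). The log2 fold change was -0.23 in limma on log2(FPKM + 1) and -0.28 on log2(FPKM + 0.1). The size of the difference thus depends on the unit and on the value added before the logarithm. The pass was lost without replicate 1 of the HFD ARMs (0.174), replicate 2 of the HFD ARMs (0.153) or replicate 2 of the HFD SMs (0.0501).

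Ppargc1a, the coactivator best known from brown fat and muscle, had estimated counts of 5.17 and 9.56 in HFD ARMs, 8.51 and 0 in HFD SMs, 2 and 0 in ND ARMs and 2 and 2 in ND SMs. Its FPKM was 0.09 and 0.14 in HFD ARMs and 0.04 and 0 in HFD SMs, although replicate 1 of the SMs had more counts than replicate 1 of the ARMs. The gene length implied by count and FPKM was 3119 and 3734 bases in the HFD ARMs and 11170 in replicate 1 of the HFD SMs, so the 2 units rank these libraries differently. No difference was detectable at these counts.

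CEBPA is the C/EBP protein that keeps adipocytes differentiated and directs myeloid development. Cebpa was at 87.3 and 92.1 FPKM in HFD ARMs, 100.4 and 94.4 in HFD SMs, 39.0 and 44.4 in ND ARMs and 42.6 and 44.7 in ND SMs. ARMs lay narrowly below SMs in HFD mice, and the groups overlapped in ND mice. The log2 fold change was -0.15 (standard error 0.06, edgeR adjusted p = 0.197) in HFD mice and -0.06 (standard error 0.10, edgeR adjusted p = 0.851) in ND mice.

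CEBPB is induced early in adipogenesis and by inflammatory signals in macrophages, and it was the most abundant member. Cebpb was at 276 and 272 FPKM in HFD ARMs against 319 and 314 in HFD SMs. In ND mice it was at 168 and 217 FPKM in ARMs against 158 and 129 in SMs. ARMs thus lay below SMs in HFD mice and above them in ND mice, an arrangement found for 1.49% of the 12343 genes tested in both diets. The log2 fold change was -0.23 (standard error 0.06, edgeR adjusted p = 0.0340) in HFD mice, below the fold threshold, and 0.42 (standard error 0.13, edgeR adjusted p = 0.0848) in ND mice. The adjusted p was under 0.05 in 5 of 14 alternatives in each diet, with a range from 0.00837 to 0.307 in HFD mice and from 3.09e-05 to 0.679 in ND mice. Both values moved across the threshold with single libraries and with the processing. The ND value became a call, 0.60 with an edgeR adjusted p of 0.0224, when ARM replicate 1 was left out, and was 0.21 (0.679) when ARM replicate 2 was left out and 0.56 (0.0358) when SM replicate 1 was left out. With all libraries kept, the ND adjusted p was 0.00728 in edgeR without a filter and 0.0448 in the joint fit of both diets, and the HFD adjusted p was 0.101 and 0.271. In HFD mice the adjusted p was 0.171 without replicate 1 of the ARMs, 0.307 without their replicate 2 and 0.0789 without replicate 1 of the SMs.

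CEBPD acts beside CEBPB at the start of adipogenesis and in the acute-phase response. Cebpd was at 40.1 and 40.8 FPKM in HFD ARMs against 54.4 and 52.4 in HFD SMs. In ND mice it was at 34.9 and 46.8 FPKM in ARMs against 38.3 and 35.5 in SMs. The HFD groups were well apart, with ARMs lower, and the ND SM libraries lay between the 2 ND ARM libraries. The log2 fold change was -0.43 (standard error 0.06, edgeR adjusted p = 0.00207) in HFD mice, a fold of 0.743 and so short of 1.5-fold, and 0.15 (standard error 0.13, edgeR adjusted p = 0.691) in ND mice. The adjusted p in HFD mice was under 0.05 in 11 of 14 alternatives. It was 0.0558 without replicate 1 and 0.0707 without replicate 2 of the HFD ARMs, and 0.0711 in limma on unfiltered log2(FPKM + 1) values. Estimated counts of Cebpd were not whole numbers, as happens where reads are divided between features, and its level is therefore uncertain.

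Cebpd, Ppargc1b and Cebpb were thus the 3 members with an adjusted p under 0.05 and lower values in HFD ARMs at any fold change, a looser rule chosen after seeing the data. Under it 3.02% of all tested genes were lower and 6.53% higher in HFD ARMs, and in ND mice, where no member passed, 0.458% and 4.28%. In HFD mice the 2 cell types did not overlap for any of the 8 tested members, with ARMs lower for 5 and higher for 3, against 21.3% and 29.2% of all tested genes. In ND mice 0 members lay below, 3 lay above (Pparg, Ppard and Cebpb) and 5 overlapped, against 22.4% of all genes below and 20.9% above.

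The second comparison asks whether the ARM against SM change itself differs between the diets. edgeR found 0 of the 8 members past an adjusted p of 0.05, beside 0.165% of 13358 genes. At an unadjusted p under 0.05 it found 2 members. The share of all genes at that unadjusted threshold was not counted, so this count cannot be set against it. DESeq2 found the same 2, Cebpb and Cebpd, past its adjusted threshold, beside 2.42% of the 3309 genes to which it gave an adjusted p. For Cebpb the HFD change minus the ND change was -0.67 (standard error 0.16, adjusted p = 0.146 in edgeR and 0.00432 in DESeq2). For Cebpd it was -0.59 (standard error 0.16, adjusted p = 0.209 in edgeR and 0.0381 in DESeq2). Without replicate 1 of the ND ARMs edgeR gave adjusted p-values of 0.0123 for Cebpb (-0.81) and 0.00959 for Cebpd (-0.76), so the edgeR result changed with that library. The differences of the other 6 members ranged from -0.25 (Ppargc1b) to 0.56 (Klf15), and edgeR passed none of them. DESeq2 gave an adjusted p to only 2 of these 6, Rxra (0.721) and Cebpa (0.999).

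Within the C/EBP family, the Cebpb share overlapped between ARMs and SMs in HFD mice and was higher in ARMs in ND mice. Cebpb made up 67.2% to 68.4% of summed C/EBP FPKM in HFD ARMs and 67.3% to 68.1% in HFD SMs, and 69.4% to 70.4% in ND ARMs against 61.7% to 66.1% in ND SMs. Cebpd made up 9.94% to 10.1% in HFD ARMs and 11.4% to 11.5% in HFD SMs, and 14.4% to 15.2% and 16.1% to 16.9% in ND mice. The Cebpd share was lower in ARMs than in SMs in each diet, and lower in HFD than in ND libraries, with no overlap. The ratio of Pparg to Cebpa, the pair that holds the adipocyte state, was 0.153 and 0.169 in HFD ARMs, 0.0907 and 0.0927 in HFD SMs, 0.237 and 0.266 in ND ARMs and 0.204 and 0.194 in ND SMs. ARMs lay above SMs in each diet, and ND libraries above HFD libraries.

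KLF15 acts in adipogenesis and in glucose uptake, and its transcript was scarce in these cells. Klf15 was at 1.15 and 1.21 FPKM in HFD ARMs, 1.0 and 0.88 in HFD SMs, 1.65 and 1.64 in ND ARMs and 2.30 and 1.52 in ND SMs. ARMs lay above SMs in HFD mice, and the ND SM libraries lay on either side of the ND ARMs. With 40 to 89 counts per library, the log2 fold change was 0.31 (standard error 0.23, edgeR adjusted p = 0.491) in HFD mice and -0.27 (standard error 0.26, edgeR adjusted p = 0.723) in ND mice.

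The order of the members by mean FPKM was Cebpb, Cebpa, Cebpd, Rxra, Ppard, Pparg, Ppargc1b and Klf15 in all 4 groups, followed by Ppara and Ppargc1a. Each member's libraries lay above those of the next in this order, except for Cebpa and Cebpd in ND ARMs, Ppargc1b and Klf15 in ND SMs, and the 2 lowest members in every group but HFD ARMs. Cebpb ranked high among all genes of its table, with 97.0% to 98.6% of genes at or below its mean in each group. Pparg ranked at 75.7% in HFD ARMs and at 61.9% to 67.3% in the other groups, and Klf15 at 38.7% to 41.1%.

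HFD and ND levels stood in tables that the authors prepared separately and that differ in the share of counts that are not whole, so the diet and the table cannot be told apart and levels are set side by side with no test. Of the 8 tested members, 5 were higher in each HFD library than in any ND library of the same cell type (Pparg, Ppard, Ppargc1b, Cebpa and Cebpb), and Klf15 was lower in each. Over all genes these shares were 20.5% and 35.9%. The log2 ratio of HFD to ND mean FPKM was 1.11 in ARMs and 1.16 in SMs for Cebpa, 0.51 and 1.14 for Cebpb, 0.61 and 0.79 for Ppard, and 0.85 and 0.81 for Ppargc1b. It was 0.46 and 0.04 for Pparg, 0.04 and 0.22 for Rxra, -0.01 and 0.53 for Cebpd, and -0.48 and -1.02 for Klf15. The median ratio of all genes was -0.10 in ARMs and -0.12 in SMs. In TPM or in TMM-scaled CPM, a count scaled to library size, all 8 kept these directions apart from Cebpd in ARMs, which turned from -0.01 to just above 0.

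Genes on which these factors act were then counted in 6 lists. Of 26 genes of lipid uptake and storage that PPARG is known to activate, 24 were tested in each diet. In HFD mice 15 were called higher and 0 lower in ARMs, and in ND mice 12 and 0. Of all tested genes 4.46% and 3.55% were called higher. The list's median log2 fold change was 1.09 in HFD and 0.76 in ND mice, against -0.01 and -0.02 over all tested genes. The list was chosen with earlier results of these data known. It holds genes that the authors reported as higher in ARMs, such as Plin1, Plin4, Cidec and Dgat2, so its counts are no separate support. In HFD mice the named genes of this list were Plin4 (log2 fold change 3.06), Scd1 (3.05), Plin1 (2.87) and Adipoq (2.85). Plin1 and Plin4 coat the lipid droplet, and Scd1, a fatty acid desaturase, was at 48.8 and 50.7 FPKM in HFD ARMs against 5.86 and 5.93 in SMs. In ND mice they were Plin1 (1.88), Scd1 (1.70), Cidec, a lipid droplet protein (9.09 and 17.3 FPKM against 4.09 and 5.21), and Adipoq (1.47), with Scd1 at 18.4 and 33.9 FPKM in ARMs against 5.84 and 10.3 in SMs. In every one of these the ARM libraries lay above the SM libraries.

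Of the 26 genes, 8 were also adipocyte markers, of which 5 were called in HFD and 4 in ND mice. Of the remaining 18, 10 were called higher in HFD mice and 8 in ND mice. Cd36, a fatty acid transporter abundant in macrophages and chosen here after its values were seen, was at 735 and 721 FPKM in HFD ARMs and 811 and 698 in SMs, with a log2 fold change of -0.08 (edgeR adjusted p = 0.610). The count of 12 in ND mice came to 5 with ARM replicate 2 left out and to 8 with SM replicate 1 left out, and limma without a filter called 6 in HFD and 0 in ND mice.

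**Figure D4:**
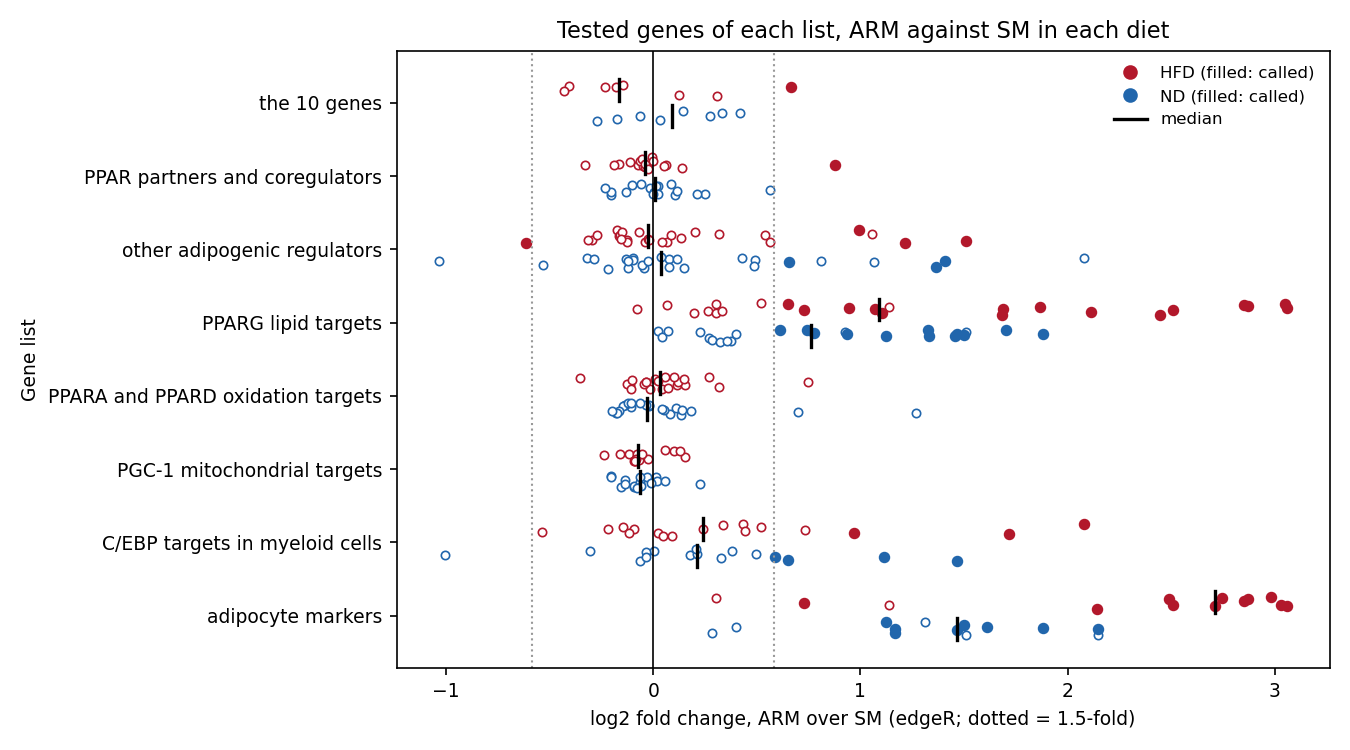
log2 fold change of ARMs over SMs for each tested gene of the 10 members, the 6 pathway lists and the adipocyte markers, in HFD and ND mice, with filled points for called genes and a line at each median. The PPARG lipid targets and the adipocyte markers lie to the right (medians 1.09 and 2.71 in HFD mice), and the oxidation and mitochondrial lists lie around 0.

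Of 28 fatty acid oxidation genes that PPARA and PPARD activate 22 were tested, and edgeR called 0 in either diet, beside 4.75% of all tested genes called in HFD and 3.68% in ND mice, with 3 at an unadjusted p under 0.05 in HFD mice and 1 in ND mice. DESeq2 and limma called 0 as well. With all libraries kept, edgeR called 1 in ND mice in the joint fit, with the replicate number as a block and under both other filters. The median log2 fold change was 0.03 in HFD and -0.03 in ND mice. Of 19 mitochondrial genes served by PGC-1, 17 were tested and edgeR called 0, with 2 and 1 at an unadjusted p under 0.05, and DESeq2 and limma called 0. Their medians were -0.07 in both diets.

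Of the 19 partners and coregulators of PPARs, 18 were tested. In HFD mice edgeR called 1 of them, beside 4.75% of all tested genes (3.68% in ND mice). There limma on log2(FPKM + 1) called 0, with or without its filter. Helz2, a PPAR coactivator, was called higher in HFD ARMs, at 2.22 and 2.39 FPKM against 1.22 and 1.24 (log2 fold change 0.88, standard error 0.09, edgeR adjusted p = 0.000297). With all libraries kept, edgeR, DESeq2 and limma called 0 of these genes in ND mice, and 4 had an unadjusted p under 0.05 in edgeR. Medians were -0.04 and 0.01, beside -0.01 and -0.02 over all tested genes. The ND median ran from -0.07 to 0.08 over the alternatives, which include fits with single libraries left out.

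Of 31 other regulators of adipogenesis 27 were tested in each diet. Of all tested genes, 4.46% were called higher and 0.292% lower in HFD ARMs, and 3.55% and 0.129% in ND ARMs. In HFD ARMs Ebf1 (log2 fold change 1.51), Ebf3 (1.22) and Nfib (0.99) were called higher and Klf2, which represses Pparg in precursor cells, was called lower (-0.62). Klf2 was at 190 and 213 FPKM in HFD ARMs against 317 and 288 in SMs, while Ebf1, a factor of adipocyte precursors and B cells, was at 1.32 and 1.53 against 0.48 and 0.52. In ND ARMs Ebf2 (1.41), Nfib (1.36) and Id2 (0.65) were called higher and none lower. Id2, an inhibitor of helix-loop-helix factors, was at 127 and 130 FPKM against 81.5 and 81.7. These counts moved with single libraries, from 1 to 4 called higher in HFD mice and from 1 to 5 in ND mice when each was left out in turn, with 1 called in HFD mice without ARM replicate 1 or ARM replicate 2 and 1 in ND mice without ARM replicate 2, and the call of Klf2 was lost without ARM replicate 1 or SM replicate 1.

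Of 17 genes that C/EBP factors activate in myeloid cells, 17 were tested in HFD and 16 in ND mice, and edgeR called 3 higher in HFD ARMs, 4 in ND ARMs and 0 lower, beside 4.46% and 3.55% of all tested genes called higher. The ND count was 2 without ARM replicate 2 and 0 in unfiltered limma, and the HFD count 2 without ARM replicate 2 and 1 in unfiltered limma. The chemokine gene Ccl3 was at 945 and 809 FPKM in HFD ARMs against 443 and 435 in SMs (log2 fold change 0.97) and at 622 and 617 against 219 and 228 in ND mice (1.47). Hp, which encodes the acute-phase protein haptoglobin and is also made by adipocytes, had log2 fold changes of 2.08 in HFD and 1.11 in ND mice. Nos2 was called in HFD mice (1.72, from 7 to 36 counts per library), and Ptgs2 (0.65) and Tnf (0.59), both inflammatory genes, in ND mice. The list's median was 0.24 in HFD and 0.21 in ND mice, and the log2 fold changes of the C/EBP members were -0.15 and -0.06 for Cebpa, -0.23 and 0.42 for Cebpb and -0.43 and 0.15 for Cebpd.

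Genes whose pair of log2 fold changes in HFD and ND mice lay nearest to that of a member were found among 10491 genes tested in both diets with a mean of at least 1 FPKM in each. Those nearest to Pparg were Grk3, Iqgap3, Lrg1, Scarb1 and Gpt, at a distance of 0.03 to 0.04 on the log2 scale. Those nearest to Cebpa were Naip2, Hira, Nucb2, Slk and Rassf2, at 0.0021 to 0.0058. Scarb1, the receptor for high-density lipoprotein, had log2 fold changes of 0.69 and 0.30 against 0.67 and 0.27 for Pparg. The likeness rests on 2 values per gene.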

How the data were processed

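RNA of sorted ARMs and SMs was sequenced at BGI on an Illumina platform. The authors deposited an estimated count, an FPKM and a TPM per gene and library, in a separate table for each diet. Per the labels the build was mm10. The aligner, counting program and annotation are not given in the sources used here. Estimated counts were not whole for 32.3% to 32.9% of genes in HFD libraries and 8.55% to 9.36% in ND libraries, and levels were not tested between the tables of the 2 diets.

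Counts were rounded and fitted within each diet with edgeR 4.0.16 in R 4.3.3 (TMM, filterByExpr, quasi-likelihood test, Benjamini-Hochberg adjustment over all genes tested: 13337 in HFD and 12441 in ND mice). A gene was called where its fold change exceeded 1.5 and its adjusted p was under 0.05. Diets were compared through the interaction term of a joint fit of the 8 libraries, at the same adjusted p with no minimum fold. Levels, their order and family shares were described from the deposited FPKM. Intervals of counting error were not drawn, and a floor of 3 counts per library covers counting error only. Alternatives were DESeq2 1.42.0, limma 3.58.1 on log2(FPKM + 1) and log2(FPKM + 0.1) (1 FPKM or more in 2 or more libraries, with log2(FPKM + 1) also unfiltered), upper-quartile and library-total normalization, no filter or at least 10 counts in every library, the thresholds of the methods section (log2 fold change over 0.6 and unadjusted p under 0.05), a joint fit of both diets, a block for the replicate number, each library left out, and TPM. An adjusted p at any fold change and TMM-scaled CPM were added after seeing the data. The pipeline was tested on simulated data.

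The members and lists were chosen with earlier results of these data known. Genes named are the 10 members, up to 4 called genes with the largest fold change per pathway list and diet, the adipocyte markers, the first 2 genes of other marker lists, the 5 genes nearest to Pparg and to Cebpa, and those said to be chosen after their values were seen. The lists were 6 pathway lists (PPARG lipid targets, PPARA and PPARD oxidation targets, PGC-1 mitochondrial targets, PPAR partners and coregulators, other adipogenic regulators, C/EBP targets in myeloid cells) and 9 marker lists (macrophage, adipocyte, endothelial, fibroblast and progenitor, mesothelial, pericyte and smooth muscle, neutrophil, T and NK, B). Upstream windows came from RefSeq (GRCm38.p6), where 8 members were matched by gene ID and used, and gene positions from GENCODE M21. Python 3.11.15 with matplotlib 3.10.9 drew the plots.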

Additional observations from a re-analysis of the deposited data

Results flagged for a closer look

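Cebpb was the member for which every ARM library lay below every SM library in HFD mice and above every SM library in ND mice. Its log2 fold change of ARMs over SMs was -0.23 in HFD and 0.42 in ND mice, and the HFD value minus the ND value was -0.67. The difference itself did not pass in edgeR (adjusted p = 0.146, with a range from 0.00432 to 0.592 over 12 alternatives) and passed in DESeq2 (adjusted p = 0.00432) and in edgeR without replicate 1 of the ND ARMs (adjusted p = 0.0123). The cause was not tested.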

How the results depend on the processing

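The count of members called higher in HFD ARMs was 1 (Pparg) and became 0 in limma on log2(FPKM + 1) without a filter; with each library left out it ranged from 0 to 1. The count called lower was 0 and became 3 with an adjusted p under 0.05 at any fold change, a rule added after seeing the data. In ND mice 0 were called higher, 0 to 1 with each library left out. For the difference between diets 0 members passed in edgeR, 2 in DESeq2, and 0 to 2 with each library left out. With the replicate number as a block 1 passed (Cebpb, adjusted p = 0.0386); in that fit Cebpb (3.09e-05) and Ppard (0.0179) in ND mice also passed, at folds under 1.5. The numbers are not known to pair pools: deviations of same-numbered ARM and SM libraries correlated at -0.03 in HFD and 0.22 in ND mice. The block changed no other member's call. Signs turned when single ND libraries were left out. In ND mice Rxra was -0.02 without ARM replicate 1 and -0.040 without SM replicate 2 (0.10 at the other end), Ppargc1b 0.017 without ARM replicate 2 (lowest -0.42), Cebpa 0.030 without ARM replicate 1 (lowest -0.17), Cebpd -0.090 without ARM replicate 2 (highest 0.35) and Klf15 0.072 without SM replicate 1 (lowest -0.56). In the difference between diets Ppargc1b was 0.030 without ND ARM replicate 1 (lowest -0.43) and Cebpa 0.015 without ND ARM replicate 2 (lowest -0.16). None of these values passed in the fit of all libraries. Pparg in HFD mice kept its sign in 14 of 14 alternatives (0.59 to 0.74). With 2 libraries a group, Ppara and Ppargc1a, at under 10 counts, are beyond what this depth can compare. The cause of the changed calls was not tested.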

Other observations

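The Krüppel-like factors of the adipogenic list were singled out after their values were seen, and their values went in both directions. Beside Klf2, log2 fold changes in HFD mice were -0.32 for Klf4 (433 and 387 FPKM in ARMs against 520 and 481 in SMs, edgeR adjusted p = 0.0242), -0.30 for Klf3 (36.7 and 33.6 against 43.2 and 41.4, edgeR adjusted p = 0.0339) and -0.27 for Klf9 (62.3 and 55.3 against 71.1 and 68.3, edgeR adjusted p = 0.0448), all short of the fold threshold, where 3.02% of all tested genes were lower at any fold. In ND mice the values were -0.53 for Klf2 (edgeR adjusted p = 0.00361), -0.29 for Klf4 (0.205), -0.32 for Klf3 (0.0725) and 0.08 for Klf9 (0.842). Klf6, at 499 to 643 FPKM, had -0.13 in HFD and 0.15 in ND mice, and Klf5, at 0.35 FPKM or less, was not tested. Nr1h3, also singled out after its values were seen, encodes the oxysterol receptor LXR alpha, a neighbour of PPARG in macrophage lipid handling. In HFD mice it was at 8.42 and 10.3 FPKM in ARMs against 5.82 and 6.74 in SMs. Its log2 fold change there was 0.54 (edgeR adjusted p = 0.0232), short of the fold threshold, where 6.53% of all tested genes were higher at any fold. In ND mice Nr1h3 was at 5.52 and 7.29 FPKM against 4.48 and 4.66 (0.49, edgeR adjusted p = 0.198).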
